A study of Homo sapiens with 15 samples.

Results

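A set of 10 genes of cell-to-cell adhesion was followed over 5 days of endoderm differentiation: the cadherin genes CDH1 (E-cadherin), CDH2 (N-cadherin), CDH3 (P-cadherin) and CDH11 (OB-cadherin), EPCAM, the claudin genes CLDN3, CLDN4, CLDN6 and CLDN7, and TJP1, which encodes the scaffold protein ZO-1. They were taken by symbol from the gene count table, 10 of its 23346 symbols, and all 10 passed the filter on low counts that left 17401 genes for testing. The cells were H9, an established human embryonic stem cell line, and every library came from that 1 line. The day 0 group was undifferentiated and grew in E8 medium. The day 1 group had spent its first day in Advanced RPMI with activin A, a ligand that acts through the Nodal pathway, and CHIR99021, an inhibitor of the kinase GSK3 that switches on Wnt signalling. The groups of day 2, day 3 and day 4 had gone on in the same base medium with activin A but without CHIR99021. Each day had 3 bulk polyA RNA-seq libraries, numbered 1, 2 and 4, so 15 in all, with total counts of 54723184 to 145857940 per library. Medium and day cannot be told apart in a comparison with day 0. The same holds for day 2 against day 1, where the later day and the removal of CHIR99021 went together. The labels do not state that the libraries of 1 day were separate cultures; p-values therefore reflect only how much these samples differ, which may be technical spread.

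The markers of the stages changed with the day, but 2 kinds of library stood apart. The summed level of POU5F1, NANOG and SOX2, the pluripotency markers (3 of 3 in the table), was 648 to 1015 CPM (counts scaled to a common library size) on day 0 and 35.5 to 190 CPM on day 4. That of T, MIXL1 and EOMES (3 of 3), the primitive streak markers, was 4.49 to 5.54 CPM on day 0, 1829 to 1932 CPM on day 1 and 88.0 to 542 CPM on day 4. That of SOX17, FOXA2, GATA6, CXCR4 and CER1 (5 of 5), the endoderm markers, was 26.2 to 33.1 CPM on day 0. It reached 4224 to 6145 CPM on day 2 and was lower on day 4, at 868 to 4303 CPM. Between those days the means of CER1 (4537 to 1679 CPM) and GATA6 (635 to 464 CPM) fell, while those of SOX17, FOXA2 and CXCR4 rose. The summed pluripotency level was higher in replicate 4 than in the other libraries of its day on day 2 (256 CPM against 77.1 and 89.9), day 3 (294 against 41.9 and 64.2) and day 4 (190 against 35.5 and 49.3). On day 2 that difference lay in POU5F1 (215 CPM against 41.7 and 43.4), while NANOG (36.6 against 30.0 and 40.8) and SOX2 (4.25 against 5.41 and 5.65) were not highest there. Replicate 4 was also highest in this sum on day 0 (1015 CPM against 806 and 648), where POU5F1 read 765 CPM against 319 and 262. On day 1 it was not (474 CPM against 546 and 381). The summed endoderm level was lower in replicate 1 on day 3 (1030 CPM against 5529 and 2969) and day 4 (868 against 4303 and 3068). CER1 made up most of that difference (478 CPM against 4478 and 1867 on day 3, and 397 against 2683 and 1958 on day 4), and GATA6 was lowest there too. FOXA2 on day 3 was highest in replicate 1 (252 CPM against 116 and 48.2), and SOX17 (121 CPM) was above replicate 2 (103). In bulk RNA, fewer cells of a type and less RNA per cell cannot be told apart. Of markers of other cell types, PTPRC, TP63, KRT5, KRT14, CGA, CGB5 and SOX1 stayed under 1 CPM in all 15 libraries.

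Classical cadherins are calcium-dependent receptors that bind the same cadherin on the neighbouring cell and are tied to actin through catenins; together they form the adherens junction. Replacement of CDH1 by CDH2 accompanies the epithelial-to-mesenchymal transition of cells that leave the epiblast through the primitive streak at gastrulation, the step that differentiation to definitive endoderm is designed to copy. Claudins are the membrane proteins that seal the tight junction between epithelial cells, ZO-1 anchors them to the cytoskeleton, and EPCAM is an epithelial surface glycoprotein that also binds claudins. Factors of the SNAI and ZEB families repress CDH1 by binding E-box motifs in its promoter.

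The stretches just before the transcription start are printed for 4 genes because their RNA levels took 4 different courses: CDH2 rose and stayed up, CLDN7 fell on day 2, CLDN3 fell and came back, and TJP1 had no called change. The RefSeq promoter table (GRCh38.p14) held 6 of the 10 genes (CDH2, CLDN3, CLDN4, CLDN6, CLDN7 and TJP1) and not CDH1, CDH3, CDH11 or EPCAM. Each stretch is the 250 bases before the outermost listed start, written 5′ to 3′ along the gene's strand, at chr18:28177131-28177380 (minus strand) for CDH2, chr17:7263214-7263463 (minus) for CLDN7, chr7:73770271-73770520 (minus) for CLDN3 and chr15:29969050-29969299 (minus) for TJP1. Capitals mark the E-box CACCTG, read on either strand (CAGGTG).
CDH2: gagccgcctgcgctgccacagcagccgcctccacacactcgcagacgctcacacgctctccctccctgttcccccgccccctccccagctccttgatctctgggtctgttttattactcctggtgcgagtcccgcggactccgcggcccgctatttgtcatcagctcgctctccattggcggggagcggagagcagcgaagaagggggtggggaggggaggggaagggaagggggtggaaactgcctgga
CLDN7: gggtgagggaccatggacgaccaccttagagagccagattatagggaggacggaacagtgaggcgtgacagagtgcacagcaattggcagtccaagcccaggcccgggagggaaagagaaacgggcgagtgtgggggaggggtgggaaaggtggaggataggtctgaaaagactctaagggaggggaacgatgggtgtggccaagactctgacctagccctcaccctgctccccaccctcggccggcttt
CLDN3: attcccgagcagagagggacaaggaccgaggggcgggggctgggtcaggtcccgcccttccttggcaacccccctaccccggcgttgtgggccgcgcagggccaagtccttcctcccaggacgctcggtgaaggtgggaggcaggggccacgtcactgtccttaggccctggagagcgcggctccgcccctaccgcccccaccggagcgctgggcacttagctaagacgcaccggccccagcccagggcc
TJP1: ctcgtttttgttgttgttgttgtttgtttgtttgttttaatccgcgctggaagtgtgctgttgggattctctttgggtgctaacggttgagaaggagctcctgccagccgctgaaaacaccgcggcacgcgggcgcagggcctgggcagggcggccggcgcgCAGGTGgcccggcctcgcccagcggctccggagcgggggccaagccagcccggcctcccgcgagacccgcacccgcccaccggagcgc
Of the 6 stretches searched, that of TJP1 held 1 match, which began 88 bases before the start, and those of CDH2, CLDN3, CLDN4, CLDN6 and CLDN7 held none. Among 35116 promoter stretches of this length in the table, 6143 (17.5%) held the motif. A match is a run of letters, not a measured binding site, and these data hold no measurement of binding.

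The cadherin exchange took place in 2 steps. CDH2 and CDH11 rose on day 1, while CDH1 and CDH3 still stood near their day 0 levels, and CDH1, CDH3, EPCAM and CLDN7 fell on day 2. Levels are CPM with scaled library sizes, given for replicates 1, 2 and 4 in that order, as mean ± SD with n = 3. A change was called where edgeR's quasi-likelihood F-test, fitted on all genes and libraries, gave a Benjamini-Hochberg adjusted p under 0.05, and each log2 fold change is followed by its standard error (SE). From day 0 to day 1, 2 of the 10 genes were called higher (CDH2 and CDH11) and 1 lower (CLDN3), when 5.49% of all genes tested were called higher, 4.88% lower and 10.4% either way. From day 1 to day 2 none was called higher and 4 were called lower (CDH1, CDH3, EPCAM and CLDN7), against 4.93% higher, 3.34% lower and 8.27% either way among all genes. From day 2 to day 3 the only call was CLDN3, higher, when 0.661% of all genes were called higher, 0.287% lower and 0.948% in all.

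From day 3 to day 4 edgeR called 0 of the 10 genes and 0% of all genes (0 higher, 0 lower). At an unadjusted p under 0.05 it counted 0 of the 10 and 1074 of all genes, and DESeq2 called 0 of the 10 and 64 of all genes. Over the whole course, day 4 against day 0, 2 of the 10 were higher (CDH2 and CDH11) and 5 lower (CDH1, CDH3, EPCAM, CLDN4 and CLDN7), when 18.0% of all genes were called higher, 16.2% lower and 34.2% either way. The joint test of the 5 days called 9 of the 10, all but TJP1, against 37.3% of all genes. The joint call of CLDN4 was lost in 9 of the 15 fits without 1 library (edgeR adjusted p = 0.0521 to 0.196). The median log2 fold change of the 10 genes was -0.28, -1.65, 0.70, -0.24 and -1.37 in these 5 comparisons, beside -0.02, -0.00, 0.01, 0.01 and -0.02 for all genes tested. Without replicate 4 of days 2 to 4, edgeR called 5 of the 10 genes on day 1, 5 on day 2, 1 on day 3 and 7 on day 4 against day 0, and without replicate 1 of days 3 and 4 it called 4, 5, 1 and 5. The same fits called 2197, 1696, 167 and 5374 of all genes without replicate 4, and 2041, 1675, 68 and 6140 without replicate 1.

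**Figure D1:**
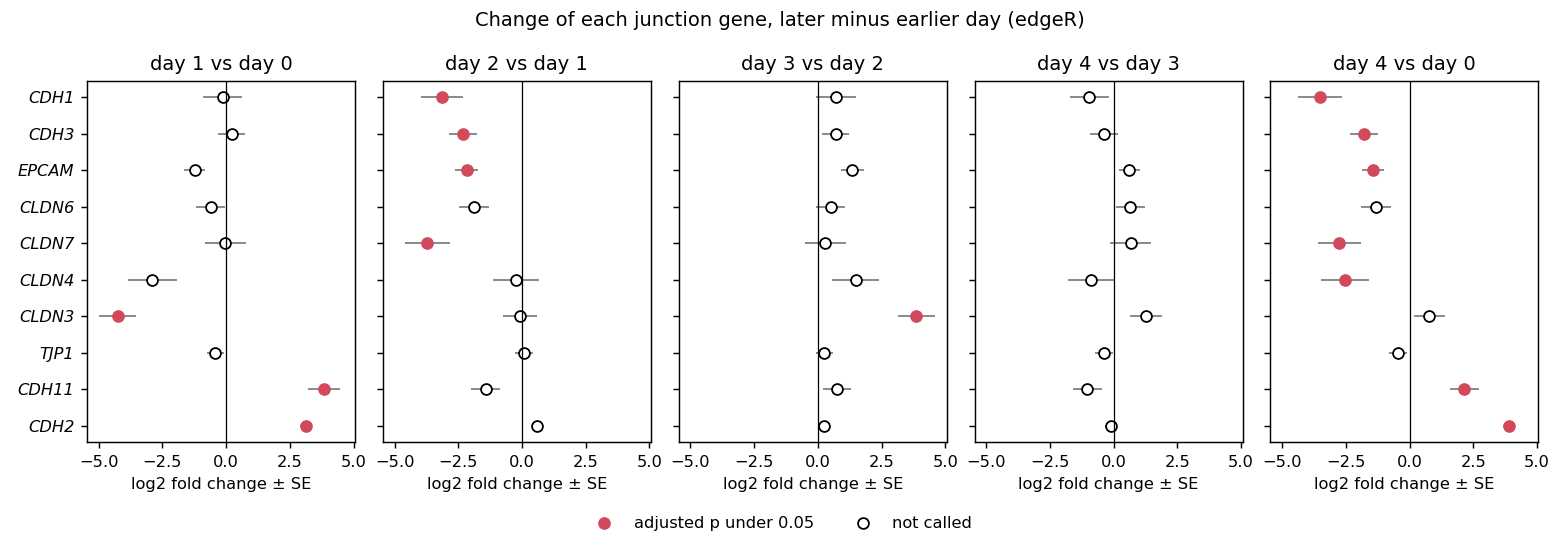
Log2 fold change of each of the 10 genes (horizontal axis) in the 5 comparisons of days, as points with bars of 1 SE; filled points passed edgeR's adjusted p under 0.05. CDH2 and CDH11 lie to the right on day 1 (3.15 and 3.84), and CDH1, CDH3, EPCAM and CLDN7 lie to the left on day 2 (-3.14, -2.32, -2.17 and -3.71).

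CDH2, the cadherin of mesenchymal, neural and cardiac cells, rose on day 1 and stayed high. Its libraries read 105, 95.0 and 85.3 CPM on day 0 and 854, 839 and 835 CPM on day 1. The levels then were 1452, 1293 and 1060 CPM on day 2, 1520, 1688 and 1347 CPM on day 3 and 1407, 1313 and 1507 CPM on day 4. All 3 libraries of each later day lay above all 3 of day 0, and those of day 2 lay above those of day 1. From a mean of 95.2 CPM to 843 ± 10.2 CPM the rise on day 1 was 8.85-fold (log2 3.15, SE 0.24, edgeR adjusted p = 1.08e-06). The further 1.51-fold difference on day 2 was not called (log2 0.59, SE 0.22, adjusted p = 0.114), although DESeq2 called it (0.60, adjusted p = 0.0260). Day 4, at 1409 ± 97.3 CPM, stood 14.8-fold above day 0 (log2 3.89, SE 0.24, adjusted p = 8.92e-08). Both called rises held with each of the 15 libraries left out in turn.

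CDH1, the cadherin of epithelia and of pluripotent stem cells, kept its level for a day and then dropped. Its libraries read 229, 382 and 294 CPM on day 0 and 266, 290 and 270 CPM on day 1. On day 2 they read 19.9, 18.3 and 55.3 CPM, on day 3 21.9, 8.50 and 122 CPM and on day 4 16.5, 8.38 and 54.0 CPM. The day 0 and day 1 libraries overlapped, all libraries of days 2 to 4 lay below all of days 0 and 1, and replicate 4 was the highest of each of those 3 days. Day 1 did not differ detectably from day 0 (302 ± 76.6 and 275 ± 13.0 CPM, log2 -0.13, SE 0.77, adjusted p = 0.944), and day 2 was 8.83-fold below day 1 (31.2 ± 20.9 CPM, log2 -3.14, SE 0.83, adjusted p = 0.0283).

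The day 2 call for CDH1 was lost when any 1 of 5 libraries was left out: day 1 replicate 1, 2 or 4 (adjusted p = 0.0797, 0.0803 and 0.0722) or day 2 replicate 1 or 2 (0.129 and 0.141). The log2 fold change stayed between -3.85 and -2.84 over the 15 such fits. Over the whole course CDH1 fell 11.5-fold (log2 -3.52, SE 0.85, adjusted p = 0.00515), a call that held in all 15 such fits. Replicate 4 of days 2 to 4, where CDH1 was highest, was also highest in the summed level of the pluripotency markers. A link between these levels was not tested. Leaving out the highest library of each later day had to make the fall larger, so such a fit is no separate evidence. Without those 3 libraries the fall was log2 -3.85 on day 2 (edgeR adjusted p = 2.02e-04) and -4.60 on day 4 against day 0 (adjusted p = 1.54e-05).

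CDH3, the P-cadherin gene, which lies beside CDH1 in the genome, followed CDH1 in its calls. It read 125, 182 and 268 CPM on day 0 and 233, 227 and 213 CPM on day 1. On day 2 its libraries read 23.6, 33.7 and 77.7 CPM, on day 3 53.2, 29.6 and 136 CPM and on day 4 54.9, 28.5 and 83.4 CPM. The libraries of day 2 and day 4 lay below all of days 0 and 1, while day 3 replicate 4 (136 CPM) lay above day 0 replicate 1 (125 CPM). From day 1 (224 ± 9.90 CPM) to day 2 (45.0 ± 28.7 CPM) CDH3 fell 4.98-fold (log2 -2.32, SE 0.56, edgeR adjusted p = 0.0179), and day 4 was 3.45-fold below day 0 (log2 -1.79, SE 0.55, adjusted p = 0.0206).

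The CDH3 calls were lost in some of the 15 fits without 1 library, while the log2 fold change on day 2 stayed at -2.97 to -1.98. The call of day 2 was lost without day 1 replicate 1, 2 or 4 (adjusted p = 0.0649, 0.0584 and 0.0514) and without day 2 replicate 1 or 2 (0.0951 and 0.101). That of day 4 against day 0 was lost without day 0 replicate 4 (0.0751), day 4 replicate 1 (0.0550) or day 4 replicate 2 (0.105). Without replicate 4 of days 2 to 4 the falls were log2 -2.97 (adjusted p = 8.56e-04) and -2.21 (adjusted p = 0.00150). They had to be larger, as replicate 4 was the highest CDH3 library of those days, while day 0 replicate 4, also the highest of its day, was kept.

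CDH11, a cadherin of mesenchyme and bone-forming cells, had its highest mean on day 1, though its highest single library was day 3 replicate 1. It read 26.0, 20.8 and 17.9 CPM on day 0 and 353, 273 and 301 CPM on day 1. Later libraries read 116, 89.6 and 139 CPM on day 2, 380, 57.5 and 148 CPM on day 3 and 130, 30.3 and 127 CPM on day 4. Every later library lay above all of day 0, those of day 2 lay below all of day 1, and replicate 2 was the lowest of days 2, 3 and 4. The day 1 rise was 14.3-fold (21.6 ± 4.11 to 309 ± 40.6 CPM, log2 3.84, SE 0.62, edgeR adjusted p = 6.85e-04). Day 2 was 2.69-fold lower than day 1, which was not called (log2 -1.43, SE 0.56, adjusted p = 0.139); in a fit of only the days compared it was called (-1.42, adjusted p = 0.00484). Day 4, at 95.7 ± 56.7 CPM, was still 4.44-fold above day 0 (log2 2.15, SE 0.57, adjusted p = 0.00966), and both rises held in all 15 fits without 1 library.

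The spread of CDH11 was widest on day 3, where replicate 1 (380 CPM) was 6.60 times replicate 2 (57.5 CPM). The mesoderm markers (MESP1, TBX6, FOXF1, HAND1, PDGFRA and KDR, 6 of 6 in the table) summed to 747, 158 and 589 CPM in the same day 3 libraries and to 434, 118 and 259 CPM on day 4, also lowest in replicate 2. Not every marker did so. FOXF1 was lowest in replicate 1 on day 3 (6.39 CPM against 10.3 and 12.4) and day 4 (4.69 against 8.54 and 8.09), and TBX6 on day 4 was highest in replicate 2 (2.16 CPM). MESP1, HAND1, PDGFRA and KDR were lowest in replicate 2 on both days, but 2 of them only barely so on day 4. There MESP1 read 2.18, 2.10 and 2.23 CPM and PDGFRA 133, 32.0 and 32.1 CPM. KDR read 120, 225 and 220 CPM on day 0 already, so the sum is not particular to mesoderm. The part of these markers in the CDH11 values was not tested. Without day 3 replicate 1 the difference of CDH11 between day 3 and day 2 turned from log2 0.76 to -0.15, and neither was called (adjusted p = 0.573 and 0.930).

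**Figure D2:**
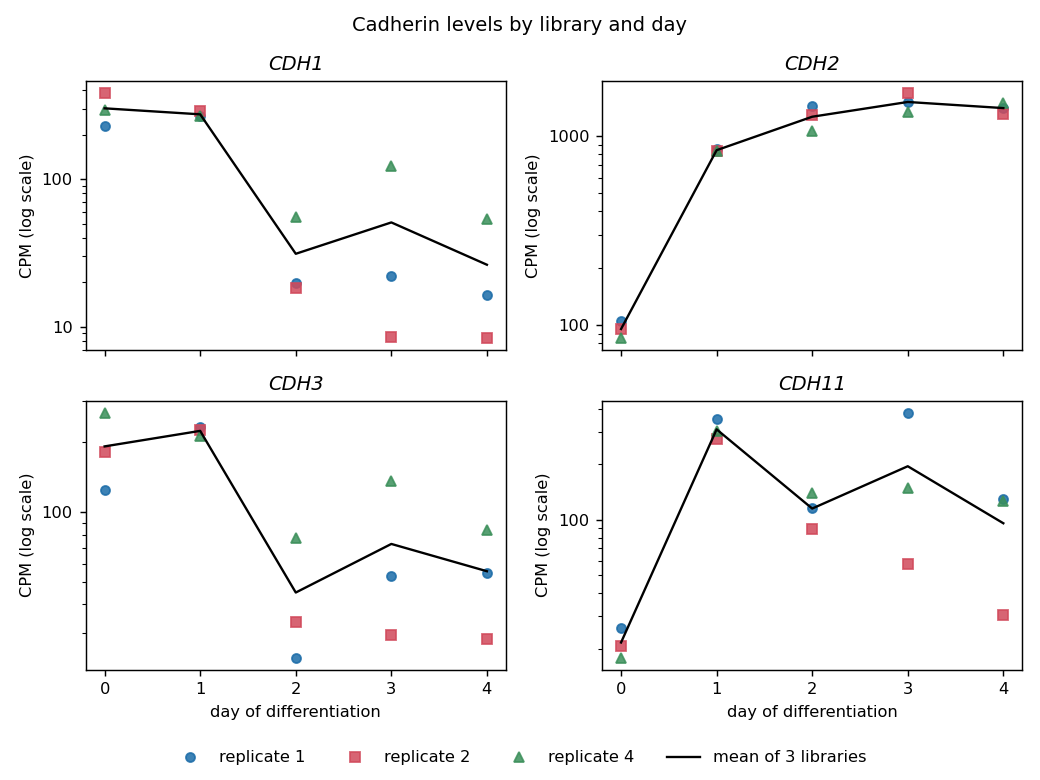
CPM (vertical, log scale) of CDH1, CDH2, CDH3 and CDH11 by day of differentiation (horizontal), with a symbol for each replicate and a line through the mean of 3 libraries. CDH2 rises from 95.2 to 843 CPM on day 1 while CDH1 stays near 302 and 275 CPM until day 2, and replicate 4 is the highest library for CDH1 and CDH3 on days 2, 3 and 4.

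Within a library, the shares and ratios of the cadherins can be read without any scaling between libraries. Means of CPM per kb over the libraries of a day do use the scaled library sizes. CPM were divided by transcript length (GENCODE release 29, 4.889 kb for CDH1 and 4.332 kb for CDH2) so that genes could be compared. Among the 22 cadherin genes so ranked, CDH1 was the highest per kb on day 0 (61.7 ± 15.7 CPM per kb), followed by CDH3 (38.9 ± 14.6) and CDH2 (22.0 ± 2.31); the SDs of CDH1 and CDH3 overlapped. CDH2 was the highest on each later day, at 194 ± 2.35, 293 ± 45.5, 351 ± 39.4 and 325 ± 22.5 CPM per kb. The next highest on any of those days was CDH1 on day 1, at 56.3 ± 2.66 CPM per kb. Of the summed CPM per kb of the 4 cadherins described here, CDH1 made up 48.8% ± 6.17 on day 0, 16.5% ± 0.995 on day 1 and 1.43% ± 1.20 on day 4 (SD, n = 3), and CDH2 made up 18.1% ± 5.36, 57.0% ± 0.621 and 91.7% ± 4.10.

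The log2 ratio of CDH2 to CDH1 per kb was -0.95, -1.83 and -1.61 in the day 0 libraries and 1.86, 1.71 and 1.80 in those of day 1. It reached 6.36, 6.31 and 4.44 on day 2, 6.29, 7.81 and 3.64 on day 3 and 6.58, 7.46 and 4.98 on day 4. The 3 groups of day 0, day 1 and day 2 did not overlap, and from day 2 on replicate 4 had the lowest ratio of its day. The mean ratio moved by 3.25 from day 0 to day 1 and by 3.92 from day 1 to day 2, each with an exact two-sided permutation p = 0.10, the smallest that 3 libraries against 3 allow, and 0.188 after adjustment over 15 ratio tests. It moved by 0.21 and 0.43 over the next 2 steps (exact p = 1.00 and 0.80, adjusted 1.00 and 0.923) and by 7.81 from day 0 to day 4 (exact p = 0.10, adjusted 0.188). The step on day 1 went with the called rise of CDH2 and the step on day 2 with the called fall of CDH1.

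For CDH11 against CDH1 the mean log2 ratio per kb was -4.28, -0.33, 1.57, 1.90 and 1.53 on days 0 to 4. Its differences of 3.95 on day 1 and 1.90 on day 2 came from groups that did not overlap (exact two-sided permutation p = 0.10 each, adjusted 0.188). The later differences of 0.33 and -0.36 did not pass (exact p = 0.80 and 0.90, adjusted 0.923 and 0.964). On day 1 CDH11 was close to CDH1 per kb, with log2 ratios of -0.08, -0.58 and -0.33 in the 3 libraries.

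**Figure D3:**
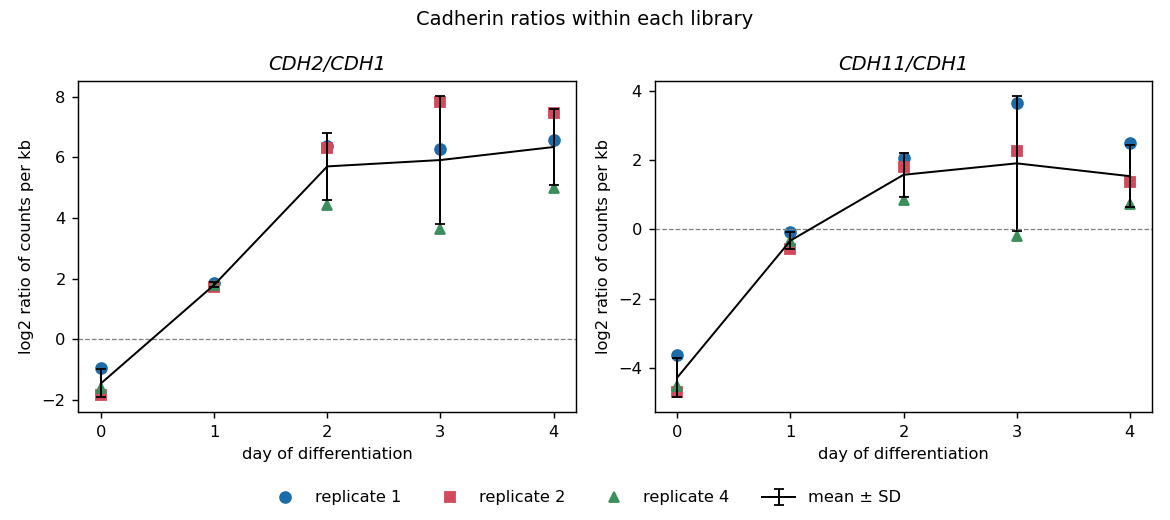
Log2 ratio of CPM per kb within each library (vertical) by day (horizontal) for CDH2 over CDH1 and CDH11 over CDH1, with a symbol per replicate and a line through the means with bars of 1 SD. The CDH2 to CDH1 ratio climbs from a mean of -1.46 on day 0 through 1.79 on day 1 to 5.70 on day 2 and stays between 3.64 and 7.81 in later libraries.

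EPCAM fell on day 2. The libraries read 933, 494 and 264 CPM on day 0, 241, 269 and 206 CPM on day 1 and 58.4, 60.4 and 39.9 CPM on day 2. They read 160, 164 and 84.1 CPM on day 3 and 321, 180 and 125 CPM on day 4. Day 2 lay below every other day in all libraries, day 3 lay above day 2 without overlap, and day 0 and day 4 overlapped. The difference on day 1 (564 ± 340 to 239 ± 32.0 CPM, log2 -1.24, SE 0.43) was not called by edgeR (adjusted p = 0.0845) but was by DESeq2 (-1.27, adjusted p = 0.0346). The fall on day 2 to 52.9 ± 11.3 CPM was 4.51-fold (log2 -2.17, SE 0.45, adjusted p = 0.00653) and held in all 15 fits without 1 library.

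On day 3 EPCAM was 2.57-fold above day 2 (136 ± 45.1 CPM, log2 1.36, SE 0.44), not called by edgeR (adjusted p = 0.148) and called by DESeq2 (1.39, adjusted p = 0.0413). Day 4 against day 2 was not tested. Day 4 stood at 209 ± 101 CPM, 2.70-fold below day 0 (log2 -1.43, SE 0.44, edgeR adjusted p = 0.0194). That last call rested on a few libraries: without day 0 replicate 1, the highest, the difference was log2 -0.83 (adjusted p = 0.144), and the call was also lost without day 4 replicate 2 (0.0713) or replicate 4 (0.0823), and without replicate 4 of days 2 to 4 (0.0564). Unlike CDH1, EPCAM was lowest in replicate 4 on each of the 5 days.

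CLDN6 is the claudin typical of embryonic epithelia and pluripotent stem cells. It had the highest claudin mean per kb throughout, though on day 2 its mean CPM (96.2) was below that of CLDN12 (108). Per kb it ranked first of 23 claudin genes on every day, at 307 ± 190, 202 ± 86.9, 55.3 ± 28.8, 79.0 ± 60.4 and 124 ± 56.7 CPM per kb from day 0 to day 4. The next claudin per kb was CLDN7 on day 0 (38.8 ± 18.4) and CLDN12 on day 2 (30.2 ± 8.93) and day 3 (25.6 ± 7.34), and the SDs of CLDN6 and CLDN12 overlapped on both of those days. In CPM the CLDN6 libraries read 432, 265 and 903 on day 0, 510, 209 and 337 on day 1, 72.6, 62.3 and 154 on day 2, 63.8, 90.7 and 258 on day 3 and 124, 205 and 320 on day 4. Day 2 lay below day 1 in all libraries and the other neighbouring days overlapped. The 3.66-fold difference on day 2 (352 ± 151 to 96.2 ± 50.1 CPM) missed the threshold (log2 -1.87, SE 0.59, edgeR adjusted p = 0.0618) and passed it with DESeq2 (-1.85, 0.0172) and without replicate 4 of days 2 to 4 (-2.38, 0.0124). Day 4 against day 0 was not called (log2 -1.31, SE 0.58, adjusted p = 0.0911). It was called under some other settings, among them length and GC trends removed (-1.81, 4.43e-04) and replicate 4 of days 2 to 4 left out (-1.70, 0.0224). The libraries overlapped on day 1 as well, and it was not called (log2 -0.60, SE 0.57, adjusted p = 0.560). Replicate 4 was the highest CLDN6 library of days 2, 3 and 4, so leaving it out had to lower the means of those days.

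CLDN6 passed the joint test of the 5 days (adjusted p = 0.0154), but not without day 0 replicate 4 (0.0560), day 2 replicate 1 (0.0511) or day 2 replicate 2 (0.0501). Its exons overlap those of TNFRSF12A on the opposite strand, and as the sources used here do not state whether counting used strand, some of its reads may belong to that gene.

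CLDN7, a claudin of many adult epithelia that binds EPCAM, dropped with CDH1. Its libraries read 57.3, 32.7 and 89.3 CPM on day 0 and 65.5, 37.9 and 72.1 CPM on day 1. They read 1.57, 1.63 and 10.3 CPM on day 2, 1.29, 2.07 and 13.2 CPM on day 3 and 6.01, 6.81 and 13.7 CPM on day 4. All libraries of days 2 to 4 lay below all of days 0 and 1, and replicate 4 was the highest of each of those days, as for CDH1. Day 1 against day 0 gave log2 -0.03 (SE 0.80, adjusted p = 0.988). The fall on day 2 was 13.0-fold (58.5 ± 18.1 to 4.49 ± 5.01 CPM, log2 -3.71, SE 0.89, edgeR adjusted p = 0.0168), and day 4 was 6.78-fold below day 0 (8.83 ± 4.21 CPM, log2 -2.76, SE 0.85, adjusted p = 0.0205).

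The day 2 call for CLDN7 was lost without day 1 replicate 1 or 4 (adjusted p = 0.0571 and 0.0541) or day 2 replicate 1 or 2 (0.0820 and 0.0874). The day 4 call was lost without day 0 replicate 4 (0.0605), day 4 replicate 1 (0.0645) or day 4 replicate 2 (0.0851). Without replicate 4 of days 2 to 4 the falls were log2 -5.20 (adjusted p = 6.56e-05) and -3.22 (2.68e-04). They had to be larger, as replicate 4 was the highest CLDN7 library of those days, while day 0 replicate 4, also the highest of its day, was kept. Within libraries, the log2 ratio of CLDN6 to CLDN7 per kb was 2.92 ± 0.22 on day 0 and 2.38 ± 0.38 on day 1, and then 4.72 ± 0.87, 4.94 ± 0.73 and 4.43 ± 0.28 on days 2 to 4 (SD, n = 3). The day 2 shift of 2.35 came from groups that did not overlap (exact two-sided permutation p = 0.10, adjusted 0.188).

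CLDN4 and CLDN3, a pair of epithelial claudins that lie side by side on chromosome 7, were low throughout. CLDN4 read 6.20, 9.06 and 21.6 CPM on day 0, 2.00, 1.32 and 1.65 CPM on day 1 and 0.626, 0.628 and 2.96 CPM on day 2. It read 0.734, 0.751 and 10.3 CPM on day 3 and 1.16, 1.40 and 3.85 CPM on day 4. Day 0 lay above day 1 and day 4 in all libraries, and replicate 4 was the highest of days 2, 3 and 4. The 7.42-fold difference on day 1 (12.3 ± 8.21 to 1.66 ± 0.338 CPM) was not called by edgeR (log2 -2.89, SE 0.96, adjusted p = 0.0686) but was by DESeq2 (-2.91, 0.00719) and in a fit of only those days (-2.89, 0.00127). Day 4 was 5.78-fold below day 0 at the edge of the threshold (2.14 ± 1.49 CPM, log2 -2.53, SE 0.95, edgeR adjusted p = 0.0495). That call stood in 5 of the 15 fits without 1 library and was lost in the other 10, the highest adjusted p being 0.173, without day 0 replicate 4. It was also lost with DESeq2's size factors (0.0552), library totals (0.0566), the CPM filter (0.0504) and without replicate 1 of days 3 and 4 (0.0958).

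CLDN3 went down and returned. It read 3.46, 1.99 and 6.36 CPM on day 0, 0.166, 0.0881 and 0.344 CPM on day 1 and 0.0552, 0.176 and 0.356 CPM on day 2. It then read 3.26, 2.55 and 2.67 CPM on day 3 and 5.62, 11.1 and 3.50 CPM on day 4. Days 1 and 2 lay below days 0, 3 and 4 in all libraries, day 4 lay above day 3, and day 4 overlapped day 0. The fall on day 1 was 19.2-fold (3.93 ± 2.22 to 0.199 ± 0.131 CPM, log2 -4.26, SE 0.72, edgeR adjusted p = 0.00102) and held in all 15 fits without 1 library. The rise on day 3 was 14.6-fold (0.196 ± 0.151 to 2.83 ± 0.380 CPM, log2 3.87, SE 0.71, adjusted p = 0.0213).

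This rise of CLDN3 was not called without day 2 replicate 1 or 2 (adjusted p = 0.124 each) or day 3 replicate 1 (0.0765), nor in a fit of only those 2 days (0.157), with log2 fold changes of 3.41 to 3.87 in these fits. Day 4 against day 3 (log2 1.26, SE 0.63, adjusted p = 0.813) and day 4 against day 0 (0.78, SE 0.62, adjusted p = 0.351) were not called. For CLDN4 the difference on day 3 was log2 1.48 (SE 0.92, adjusted p = 0.495), with a day 3 mean of 3.92 ± 5.50 CPM that rested on replicate 4. The difference between CLDN3 and CLDN4 was not tested.

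TJP1 gave no called difference. Its libraries read 263, 435 and 225 CPM on day 0, 213, 284 and 192 CPM on day 1 and 291, 270 and 166 CPM on day 2. They read 336, 276 and 252 CPM on day 3 and 336, 156 and 177 CPM on day 4. Neighbouring days overlapped in every case, as did day 4 and day 0. The day 4 mean of 223 ± 98.2 CPM was log2 -0.46 (SE 0.35) from that of day 0, 308 ± 112 CPM (edgeR adjusted p = 0.317), and the joint test gave adjusted p = 0.668. With transcript length and GC trends removed, TJP1 was called lower on day 4 than on day 0 (log2 -0.59, adjusted p = 0.0249).

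**Figure D4:**
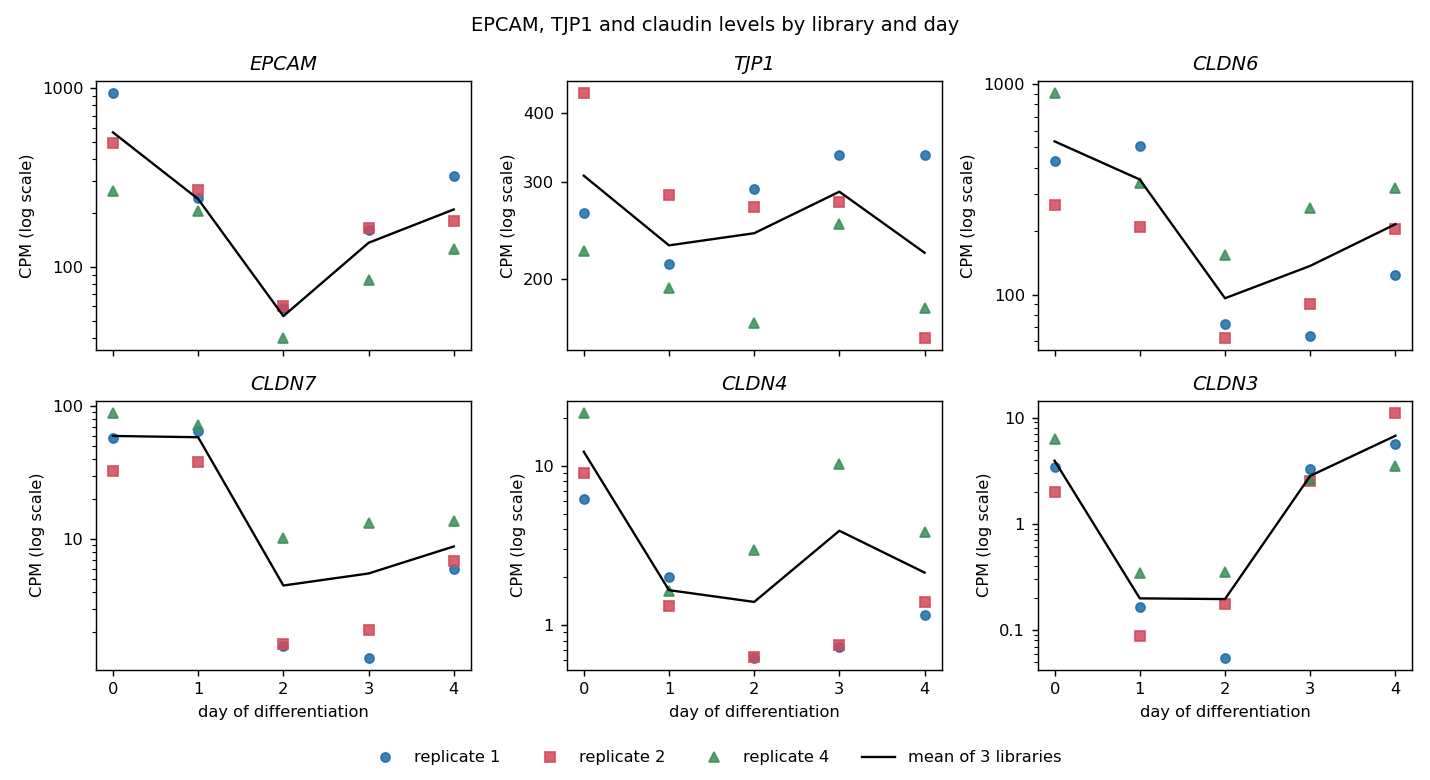
CPM (vertical, log scale, a different range in each panel) of EPCAM, TJP1, CLDN6, CLDN7, CLDN4 and CLDN3 by day (horizontal), with a symbol for each replicate and a line through the mean of 3 libraries. EPCAM is lowest on day 2 (52.9 CPM), CLDN7 falls from 58.5 to 4.49 CPM on day 2, CLDN3 is at 0.199 and 0.196 CPM on days 1 and 2 and at 2.83 CPM on day 3, and TJP1 stays between 156 and 435 CPM.

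Non-overlapping libraries were counted for the 10 genes and for all genes tested. On day 1, 2 of the 10 genes lay wholly above day 0 (CDH2 and CDH11) and 2 wholly below it (CLDN3 and CLDN4), when 15.8% and 14.1% of all genes did so. On day 2, 1 gene lay above day 1 (CDH2) and 6 lay below (CDH1, CDH3, CDH11, EPCAM, CLDN6 and CLDN7), against 17.2% and 18.5% of all genes. On day 3, 2 lay above day 2 (EPCAM and CLDN3) and none below (9.10% and 8.75%), and on day 4, 1 lay above day 3 (CLDN3) and none below (4.95% and 4.32%). Day 4 lay above day 0 for CDH2 and CDH11 and below it for CDH1, CDH3, CLDN4 and CLDN7 (21.1% and 19.5% of all genes).

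Of 18 further cadherin genes in the table, 15 were tested. On day 4 against day 0, 7 were higher and none lower (18.0% and 16.2% of all genes), with a median log2 fold change of 1.62. CDH22 was at 8.54 CPM against 0.0891 (log2 6.52, SE 1.15, adjusted p = 5.85e-04), CDH12 at 24.0 against 0.314 CPM (6.25, SE 0.92, 1.45e-04) and CDH8 at 59.8 against 2.99 CPM (4.32, SE 0.66, 1.92e-04). CDH8 rose on day 3 (log2 3.60, SE 0.64, adjusted p = 0.0199), with 73.1, 19.0 and 11.4 CPM in its libraries. All 3 are known mainly from the nervous system. CDH24, which ranked 3 of 22 cadherins per kb on day 2 and 2 of 22 on days 3 and 4, went from 11.1 CPM on day 0 to 73.0 CPM on day 4 (log2 2.71, SE 0.51, adjusted p = 9.50e-04).

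Catenins link cadherins to actin inside the cell, and nectins are a separate class of adhesion proteins at the same junction. Of 14 such genes tested, 1 was higher and 3 lower on day 1, 1 higher and 1 lower on day 2, and 2 were higher and 1 lower on day 4 against day 0. Among all genes tested, 10.4%, 8.27% and 34.2% were called either way in these comparisons. CTNNB1, which encodes beta-catenin, was at 1302 CPM on day 0 and 1269 CPM on day 4 (log2 -0.04, SE 0.31, adjusted p = 0.940), and CTNNA1, for alpha-catenin, at 307 and 331 CPM (0.11, SE 0.22, 0.738). The nectin gene PVRL3 fell on day 1 from 106 to 25.6 CPM (log2 -2.05, SE 0.49, adjusted p = 0.0126) and PVRL1 from 129 to 48.9 CPM (-1.40, SE 0.37, 0.0238), while PVRL2 was higher on day 4 than on day 0 (368 against 157 CPM, 1.23, SE 0.24, 0.00132). CTNNB1 and CTNNA1 were named after their values were seen.

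Among the other claudins, 14 of 19 were tested, and day 4 against day 0 gave 8 higher and 2 lower (18.0% and 16.2% of all genes), with a median log2 fold change of 1.68. CLDN1 was at 37.9 against 4.54 CPM (log2 3.06, SE 0.65, edgeR adjusted p = 0.00217) and CLDN11 at 20.1 against 3.05 CPM (2.72, SE 0.69, 0.00712), while CLDN10 fell from 26.4 to 3.93 CPM (-2.75, SE 0.43, 2.08e-04). Of the 8 that were higher, 4 had a day 4 mean of at least 5 CPM: CLDN1, CLDN11, CLDN19 and CLDN23. CLDN12 ranked second of the claudins per kb on days 2 to 4, where CLDN7 had stood on days 0 and 1; its own level was 114 CPM on day 0 and 84.5 CPM on day 4 (log2 -0.44, SE 0.36, adjusted p = 0.372).

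Of 18 other tight junction genes, 6 were lower and none higher on day 1 (background 4.88% and 5.49%), and 4 were lower and 2 higher on day 2 (3.34% and 4.93%). Day 4 against day 0 gave 3 lower and 2 higher, near the share of all genes (16.2% and 18.0%). OCLN, for occludin, fell on day 1 from 118 to 41.4 CPM (log2 -1.51, SE 0.44, edgeR adjusted p = 0.0392). OCLN was named after its values were seen.

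CGNL1, for the junction protein paracingulin, dipped for a single day. Its libraries read 26.0, 67.5 and 50.2 CPM on day 0, 4.13, 5.52 and 4.11 CPM on day 1 and 87.5, 124 and 116 CPM on day 2. The fall was log2 -3.38 (SE 0.35, edgeR adjusted p = 1.31e-05) and the rise on day 2 was 4.58 (SE 0.36, 5.63e-06). No library of day 1 overlapped either neighbouring day. MARVELD3, a membrane protein of the tight junction, fell from 17.9 CPM on day 0 to 1.62 CPM on day 4 (-3.47, SE 0.59, 4.33e-04), and MAGI3, a junction scaffold, rose from 16.3 to 109 CPM (2.75, SE 0.39, 9.47e-05).

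In the desmosome list, 11 of 12 genes were tested; 1 was higher on day 1 (background 5.49%), while day 4 against day 0 gave 2 higher and 1 lower (18.0% and 16.2%). DSP, for desmoplakin, rose on day 1 from 108 to 495 CPM (log2 2.20, SE 0.32, edgeR adjusted p = 3.38e-04), at the same step as CDH2. PKP2, for plakophilin 2, rose on day 3 from 23.5 to 86.3 CPM (1.88, SE 0.31, 0.0122). The desmosomal cadherin DSC3 was at 1.39 CPM on day 4 against 5.62 CPM on day 0 (-2.02, SE 0.54, 0.00938).

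Genes of 3 known CDH1 repressors, SNAI1, ZEB1 and ZEB2, rose on day 1, when CDH1 had no called change. Of 8 such genes tested, 3 were higher and 1 lower on day 1 (5.49% and 4.88% of all genes), and 5 higher and 1 lower on day 4 against day 0 (18.0% and 16.2%). SNAI1 read 8.26, 6.49 and 4.72 CPM on day 0 and 77.5, 77.0 and 57.0 CPM on day 1 (log2 3.44, SE 0.51, edgeR adjusted p = 3.25e-04). ZEB2 read 2.34, 1.65 and 0.685 CPM and then 37.4, 40.8 and 23.6 CPM (4.45, SE 0.52, 4.06e-05). ZEB1 rose in both steps, from a mean of 2.27 CPM on day 0 to 7.21 CPM on day 1 (1.67, SE 0.40, 0.0141) and 37.3 CPM on day 2 (2.37, SE 0.41, 0.00206). TWIST1 was at 6.25 CPM on day 4 against 0.667 CPM on day 0 (3.23, SE 0.65, 0.00161), and the list member called lower was SNAI3, with day means of 2.12 CPM and under.

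Epithelial regulators and surface genes, 14 tested, were called lower in 2 cases on day 1, 4 on day 2 and 6 on day 4 against day 0, where 2 were higher. Of all genes, 4.88%, 3.34% and 16.2% were lower in these comparisons, and 18.0% higher in the last. GRHL2, an activator of CDH1 and claudin genes in epithelia, was at 36.5 CPM on day 0, 13.4 CPM on day 1 and 1.91 CPM on day 2, and it was lower on day 2 than on day 1 (log2 -2.81, SE 0.64, edgeR adjusted p = 0.0122). The splicing regulator ESRP1 fell in both steps, from 337 to 130 CPM (-1.38, SE 0.39, 0.0321) and to 40.1 CPM (-1.69, SE 0.39, 0.0134). SPINT1, a protease inhibitor of epithelial surfaces, fell on day 2 from 104 to 39.8 CPM (-1.38, SE 0.41, 0.0496). The keratins KRT8 and KRT19 were the 2 that were higher on day 4 (1783 against 496 CPM and 568 against 98.2 CPM; log2 1.85, SE 0.30, 3.12e-04, and 2.53, SE 0.38, 1.62e-04); they were named after their values were seen. From day 3 to day 4 edgeR called 0 genes in each of the 7 lists, as it did in the whole table. CDH5 had no count in any day 1 library, nor CLDN2 and CLDN24 in any day 0 library, so their fitted fold changes, the most distant points of their bands in the plot of the lists, depend on the prior count and are no measure of size.

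**Figure D5:**
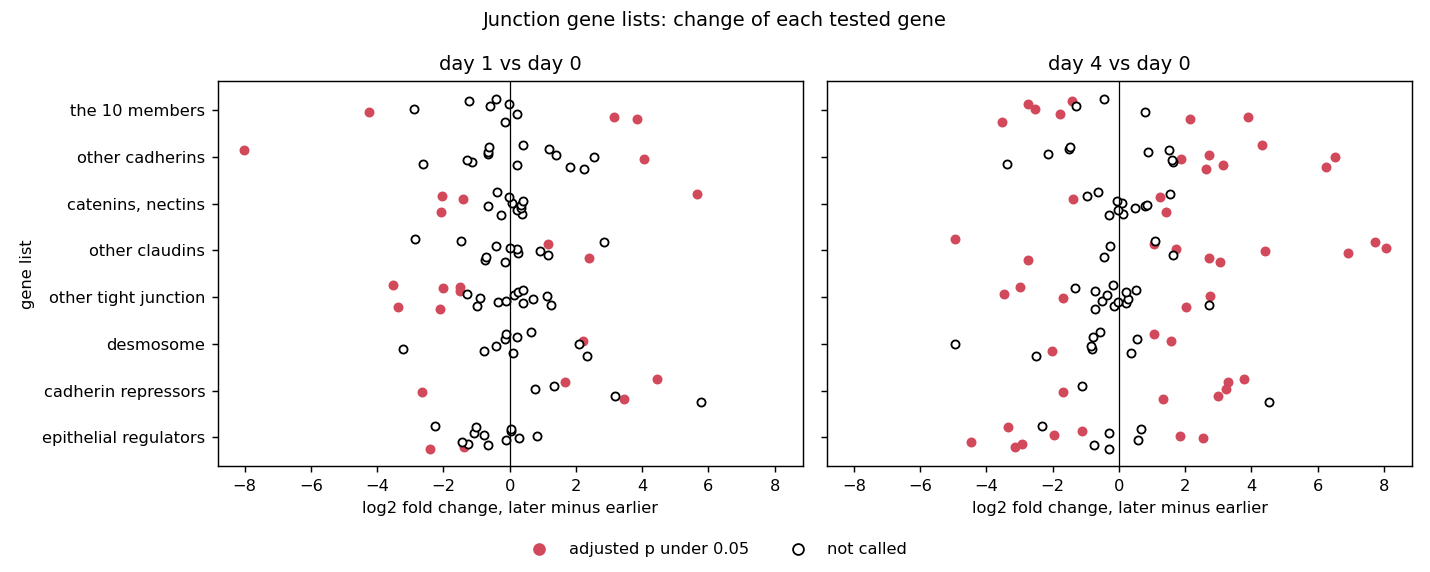
Log2 fold change (horizontal) of the 10 genes and of every tested gene of the 7 lists of related genes (vertical, a band per list), on day 1 against day 0 (left) and day 4 against day 0 (right); filled points passed edgeR's adjusted p under 0.05. The other cadherins and other claudins have medians of 1.62 and 1.68 on day 4 against day 0, and the other tight junction genes called on day 1 all lie to the left.

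Courses were compared by the root mean square (RMS) difference of log2 CPM over the 15 libraries after each gene's mean was removed, where 0 is the same course. Among the 10 genes the nearest pairs were CDH3 with CLDN6 (0.72) and CDH1 with CDH3 (0.90), followed by CLDN4 with CLDN6 (0.94) and CDH1 with CLDN7 (0.98). Among the 10920 genes averaging 5 CPM or more, the nearest to CDH2 was WIPF1 (0.25), then SETD7 (0.33) and CNTNAP2 (0.34). WIPF1 read 3.26 ± 0.799 CPM on day 0, 23.4 ± 2.90 on day 1 and 44.8 ± 9.63 on day 2. CDH11 came closest to RNF43 (0.54), SNAI1 (0.57) and ADAMTS5 (0.57).

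The nearest genes to CDH1 were GYLTL1B (0.59), LCK (0.60) and CDCP1 (0.62), to CDH3 APOL2 (0.44), PMEL (0.44) and SPINT1 (0.46), and to CLDN6 CLU (0.31), ESRP2 (0.36) and SLC25A4 (0.43). GYLTL1B read 4.82, 4.99 and 15.3 CPM on day 2 and CLU 13.7, 14.8 and 46.2 CPM, each highest in replicate 4. All these values come from the same 15 libraries, so the differences between replicates of a day enter them as the differences between days do.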

How the data were processed

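Gene expression was measured by polyA RNA-seq in 15 libraries; per the labels' protocols the libraries were directional. The submitters' processing notes name TopHat2 2.0.14 and build hg19; for the counting step, the program, annotation and strand setting were not given in the sources used here. The authors deposited raw counts, unnormalized, by gene symbol, and no value was odd. Of 23398 entries, 44 identical repeats were dropped and 8 repeats were summed, leaving 23346 symbols, 2605 without a count. Columns were matched to samples by title, which gives day and replicate number.

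Counts were tested with edgeR 4.0.16 (R 4.3.3, limma 3.58.1): TMM scaling, filterByExpr by day (17401 genes kept), a mean per day, all 15 libraries in 1 fit, the quasi-likelihood F-test and Benjamini-Hochberg adjustment over all genes tested, with a threshold of 0.05. The biological coefficient of variation was 45.6%. SE is the log2 fold change over the square root of F. CPM use TMM-scaled library sizes. Levels per kb and GC content used GENCODE release 29 transcripts (20194 symbols, 86.5%, had both), so they depend on the transcript chosen. Ratios within libraries were tested with exact permutation tests in SciPy 1.17.1, and tables were made with pandas 2.3.3. The fitting code was tested on simulated data. Total counts were 54723184 to 145857940 per library.

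The 10 genes, the 7 lists of 103 related genes and the markers were chosen with earlier results of these data known. From each list, up to 3 called genes per comparison were named, those of largest change with a mean of at least 5 CPM on 1 of the days compared; for CDH1, CDH2, CDH3, CDH11 and CLDN6 the 3 nearest genes by course were named. Alternatives were DESeq2 1.42.0 and its size factors in edgeR, library totals, no filter, CPM above 1 in 3 libraries as the filter, the replicate number as a block, removal of length and GC trends, a fit of only the days compared, and libraries left out. A gene that this rule names is not reported here.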

Additional observations from a re-analysis of the deposited data

How the results depend on the processing

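With 3 libraries a day, a change that was not called is not shown to be absent. DESeq2's size factors, library totals, no filter and the CPM filter left the counts of called members within 1.5 times. Members called on day 1 numbered 3 in the reported fit, 5 with DESeq2, with the replicate block and without replicate 4 of days 2, 3 and 4 (chosen after seeing the data), and 6 with the block and length and GC trends removed. On day 3 they numbered 1, then 2 with DESeq2, the block, length and GC trends removed, or both together, and 0 in a fit of only those days. With 1 library left out they ranged from 3 to 4 on day 1, 1 to 5 on day 2, 0 to 1 on day 3, 0 to 0 on day 4 against day 3, 3 to 7 on day 4 against day 0 and 7 to 9 in the joint test.

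All genes called numbered 1806, 1439, 165 and 0 in the 4 steps. DESeq2 gave 2837, 2458, 964 and 64; the replicate block 2913, 2466 and 590; length and GC trends removed 2756, 2642 and 888; both together 3561, 3491 and 1371, and 10093 in the joint test. A fit of only the days compared gave 2814 on day 2 and 0 on day 3, and leaving out replicate 1 of days 3 and 4 gave 68 on day 3. With 1 library left out the ranges were 1036 to 2639, 612 to 1629, 5 to 247 and 0 to 1, 4051 to 6640 for day 4 against day 0 and 5189 to 7040 jointly. The share of calls that were higher was 69.7% on day 3, and 49.2% with length and GC trends removed; on day 2 it was 59.6%, and 48.2% with the block and those trends removed. On day 4 against day 0 removal of the trends moved the median log2 fold change of all genes to -0.13.

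The replicate numbers are not stated to mark a shared culture. Same-numbered libraries had correlated deviations over 0.1 in 21 of 30 pairs (-0.16 to 0.54), and 11 of 15 libraries were closest to their own number. The median correlation was 0.19 for pairs of the same number and -0.11 for pairs of other numbers. As no pairing is stated, the fit without the block was reported and the block was kept as a check. Under it CLDN4 and EPCAM were called on day 1 (log2 -2.49 and -1.07), CDH11 and CLDN6 on day 2 (-1.44 and -2.04), EPCAM on day 3 (1.32) and CLDN6 on day 4 against day 0 (-1.19).

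Directions turned for some differences that were called under neither setting, and the cause was not tested. With length and GC trends removed, CDH3 on day 1 was -0.07, CLDN3 and TJP1 on day 2 were 0.21 and -0.16, and CDH2 on day 4 against day 3 was 0.04; with the block as well these were -0.03, 0.17, -0.16 and 0.03. CLDN7 on day 1 was 0.04 with library totals and 0.10 with the block. Without replicate 4 of days 2 to 4, CDH1 on day 3 was -0.31 and CLDN4 on day 4 against day 3 was 0.77, and without replicate 1 of days 3 and 4, CDH11 on day 3 was -0.15. With 1 library left out, the ranges that crossed 0 were, on day 1, -0.29 to 0.07 for CDH1, -0.01 to 0.56 for CDH3, -0.96 to 0.04 for CLDN6 and -0.33 to 0.40 for CLDN7; on day 2, -0.86 to 0.62 for CLDN3, -1.40 to 0.15 for CLDN4 and -0.06 to 0.29 for TJP1. On day 3 they were -1.03 to 1.47 for CDH1, -0.15 to 1.19 for CDH11, -0.12 to 1.40 for CDH3, -0.91 to 2.70 for CLDN4, -0.31 to 1.08 for CLDN6 and -1.42 to 1.85 for CLDN7, and on day 4 against day 3, -2.07 to 0.83 for CDH1, -0.84 to 0.45 for CDH3 and -1.64 to 1.55 for CLDN4. With 1 library left out the log2 ratio of CDH2 to CDH1 moved by 3.07 to 3.51, 3.59 to 4.55, -0.74 to 1.34 and -0.71 to 1.38 in the 4 steps and by 7.24 to 8.49 over the course. That of CDH11 to CDH1 moved by 3.75 to 4.28, 1.65 to 2.26, -0.54 to 1.38 and -1.42 to 0.50, and by 5.33 to 6.21. That of CLDN6 to CLDN7 moved by -0.75 to -0.38, 2.03 to 2.84, -0.27 to 0.64 and -0.93 to -0.26, and by 1.36 to 1.64.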
